A study of Mus musculus with 6 samples.

Results

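The S100 family of small calcium-binding proteins was described here through the transcripts of 10 genes, S100a1, S100a4, S100a6, S100a8, S100a9, S100a10, S100a11, S100a13, S100a16 and S100b. They were taken by gene symbol from a table of 25755 genes, and all 10 had a value above 0 in every library. The libraries came from the optic nerves of 6 NF1flox/flox;hGFAP-Cre mice. Of these, 3 had sham surgery (mice 1 to 3) and 3 had optic nerve crush, abbreviated ON-CR (mice 4 to 6). Surgery was bilateral at an age of 6 weeks. The nerves were taken at an age of 12 weeks, which the sample labels give as 3 months. In these mice both Nf1 alleles are floxed, and Cre recombinase under the human GFAP promoter removes Nf1 from neuroglial progenitors and the cells that descend from them. Sham mice carried the same alleles, so that the comparison is of crushed with sham-operated nerves that share the Nf1 loss. No mouse with intact Nf1 was included. The study reports that optic gliomas form after crush in mice of this genotype, by the age at which these nerves were taken. Injury and tumor therefore cannot be told apart in this comparison. Whether each sequenced nerve held a tumor was not tested. Each library is bulk RNA of a nerve that holds astrocytes, oligodendrocytes, their precursors, microglia, vessels and meninges together with the axons of retinal ganglion cells.

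S100 proteins are dimers whose subunits each carry a pair of EF-hand loops. In most of them, calcium binding opens a surface through which they take hold of partner proteins, among them annexins and cytoskeletal proteins. S100b is the classic glial member, made by astrocytes and by myelinating oligodendrocytes, and S100a1 and S100a16 are also abundant in nervous tissue. S100a4 and S100a6 are associated with motile and reactive cells. S100a10 and S100a11 bind annexins at membranes, and S100a13 takes part in the release of proteins that lack a signal peptide. S100a8 and S100a9 pair to form calprotectin, an abundant product of neutrophils and monocytes that is released in inflammation.

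Of the 10 genes, 9 lie on mouse chromosome 3 and S100b lies on chromosome 10. A promoter window was found for 9 of the 10 genes in the RefSeq table of GRCm38.p6, S100a10 being the exception. The 250 bases before the start annotated by RefSeq are shown for the 3 genes whose transcripts passed the test between the groups, on the strand of the gene, with capitals for a TATAAA match. The windows are chr3:90603520-90603769 for S100a4, chr3:90612644-90612893 for S100a6 and chr10:76253586-76253835 for S100b, all on the + strand.
S100a4: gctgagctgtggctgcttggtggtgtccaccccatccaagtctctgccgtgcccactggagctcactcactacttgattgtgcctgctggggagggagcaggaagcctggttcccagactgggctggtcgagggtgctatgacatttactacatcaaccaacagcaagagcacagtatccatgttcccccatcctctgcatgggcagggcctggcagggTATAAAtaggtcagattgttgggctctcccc
S100a6: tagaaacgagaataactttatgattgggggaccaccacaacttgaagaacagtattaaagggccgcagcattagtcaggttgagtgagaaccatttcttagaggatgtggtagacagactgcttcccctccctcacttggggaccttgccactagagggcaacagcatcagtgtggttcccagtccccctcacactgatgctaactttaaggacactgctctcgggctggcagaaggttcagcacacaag
S100b: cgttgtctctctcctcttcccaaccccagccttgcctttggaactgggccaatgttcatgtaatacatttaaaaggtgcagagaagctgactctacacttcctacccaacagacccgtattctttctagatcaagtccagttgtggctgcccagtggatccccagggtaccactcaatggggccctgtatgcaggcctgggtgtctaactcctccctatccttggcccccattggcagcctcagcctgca
The window of S100a4 holds TATAAA at 31 bases before the start. Those of S100a6 and S100b hold no such match, nor does any of the 3 hold the AP-1 letters TGANTCA or the STAT-type letters TTCNNNGAA on either strand. Of 32851 windows of the same length, 12.4% hold TATAAA, 6.75% hold TGANTCA and 7.02% hold TTCNNNGAA. Among the windows of the family, TATAAA also lies 30 bases before the start of S100a8, TGAGTCA lies 38 and 136 bases before that of S100a11, and TGAATCA lies 192 bases before that of the second S100a16 window. A match is a description of the letters and not evidence of a bound site.

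The deposited values are gene counts divided by a factor per library, called normalized counts here. Estimated depth was 19892892 to 23621006 reads in the sham group and 17414091 to 18978379 reads in the ON-CR group, without overlap. The targeted gene Nf1 was at 343 to 447 in sham nerves and 380 to 438 in crushed nerves, which checks no label because both groups carry the deletion. Sex-linked transcripts differed between the groups. The Y-linked gene Ddx3y was at 1291 to 1645 in sham nerves, at 976 in ON-CR mouse 4, and at 4.19 and 0 in ON-CR mice 5 and 6, while Xist was at most 30.9 in sham nerves and at least 2708 in crushed nerves. The library of ON-CR mouse 4 thus held both Xist, at 2708, and Ddx3y, although the labels give it as 1 mouse, and whether each library is a single animal was not tested. Sex and surgery cannot be told apart. Markers of the labelled tissue were present in every library, with Gfap at 99186 or more and Mbp at 369255 or more, whereas those of skeletal muscle summed to at most 249.7. Nasal and glandular epithelial genes were high in 1 sham and 2 ON-CR libraries, with summed values of 267, 166 and 8388 in mice 1 to 3 and of 38.9, 5561 and 6304 in mice 4 to 6.

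Following ON-CR, transcripts of S100a4 and S100a6 were higher and those of S100b were lower, while the other 7 genes did not pass the test. S100a4 was 2.94-fold higher (95% interval 2.12 to 4.07) and S100a6 was 2.54-fold higher (95% interval 1.93 to 3.35). S100b fell to 0.596 of its sham level (95% interval 0.489 to 0.726). All folds are of log2(normalized count + 1), tested with limma over all 25755 genes and called at a Benjamini-Hochberg adjusted p at or under 0.05. Of all genes tested, 2.10% were called, 0.971% as higher and 1.13% as lower. Among the 3122 genes with a mean normalized count of at least 1000, 6.76% were called. The median log2 fold change of the 10 genes was 0.36, against 0.03 over all genes, and the median of its absolute size was 0.46 against 0.30. Non-overlapping groups were found for 4 of the 10 genes (S100a1, S100a4 and S100a6 higher, S100b lower), against 21.6% of all genes. The smallest two-sided exact permutation p that 3 mice against 3 can give is 0.1, and these 4 genes reached it. None of the 3 calls was made when the variance was fitted without a trend on the mean, a setting that called 7 genes in the whole table. With the libraries scaled to equal totals, 68.3% of all calls were higher in place of 46.3% and the median of all genes moved to 0.15, but the same number of family members was called in each direction.

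**Figure D1:**
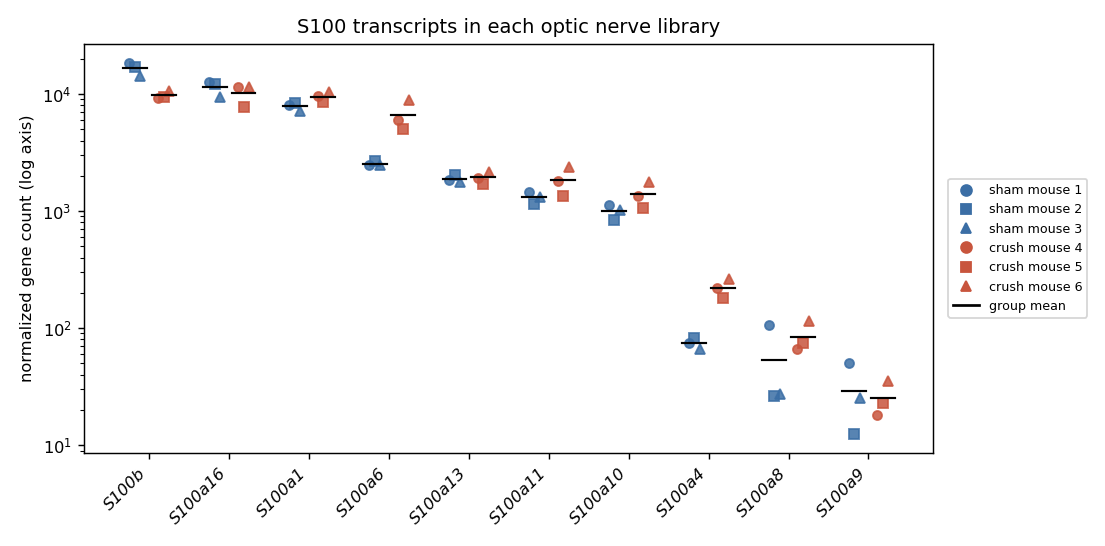
Normalized gene count (log axis) of the 10 S100 genes in each of the 3 sham and 3 ON-CR (crush) libraries, ordered by sham mean, with a bar for the mean of each group. The ON-CR points of S100a6 (5055 to 8839) and S100a4 (180 to 261) lie above all sham points, and those of S100b (9335 to 10714) lie below them.

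**Figure D2:**
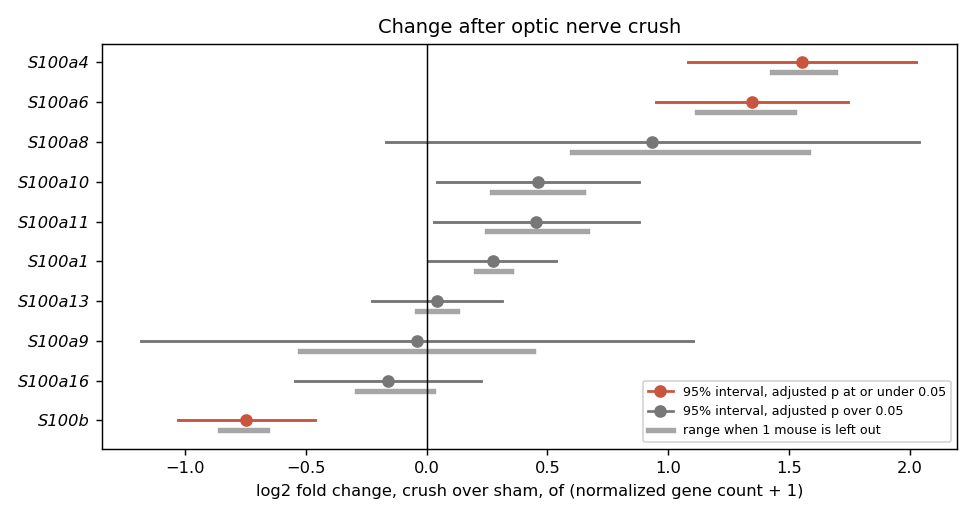
Log2 fold change of ON-CR over sham for each of the 10 genes, with the 95% interval from limma and, as a grey bar, the range over the 6 fits that each leave out 1 mouse. S100a4, S100a6 and S100b passed the adjusted threshold, and the intervals of S100a8 and S100a9 are the widest.

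S100b, the glial member, was the one transcript of the family called lower. It maps to chromosome 10 of GRCm38 from 76253853 to 76261159 (ENSMUSG00000033208.7), and the gene Dip2a on the other strand overlaps it without a shared exonic base. Its normalized counts were 18581, 17008 and 14222 in the nerves of sham mice 1, 2 and 3, against 9335, 9516 and 10714 in those of ON-CR mice 4, 5 and 6. The lowest sham value thus exceeded the highest ON-CR value, and the ON-CR mice lay closer together than the sham mice. The means were 16604 ± 2208 and 9855 ± 749 (SD, n = 3 each). In limma, its log2 fold change was -0.75 ± 0.13 (SE), with an adjusted p of 0.0185. This call was lost without sham mouse 1, sham mouse 2, ON-CR mouse 4 or ON-CR mouse 6, with adjusted p-values of 0.0748, 0.124, 0.0548 and 0.0968, while the log2 fold change stayed between -0.85 and -0.66.

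The fall of S100b went together with that of myelin genes. Of 8 markers of mature oligodendrocytes, 6 were called lower (among them Mbp, Mog, Mag, Mobp and Cnp), none was called higher, and their median log2 fold change was -0.86. Mog encodes a glycoprotein of the outer myelin surface and was lower by this measure too, at -0.90 (adjusted p = 0.0214). The ratio of S100b to Mog was 1.08 ± 0.118 in sham nerves and 1.21 ± 0.228 in crushed nerves (SD, n = 3 each), and the groups overlapped. Cnp, a myelin-associated enzyme, gave the same picture, with a ratio of S100b to Cnp of 0.215 ± 0.0217 and 0.234 ± 0.0373 (SD, n = 3 each). Of the 8 markers, only Mog and Cnp were set against S100b in this way, and the others did not all fall alike. Against the log2 fold change of -0.75 for S100b, Mbp and Mobp fell further, at -1.42 and -1.21. Cldn11 and Opalin fell less, at -0.48 and -0.44. Of 8 astrocyte markers, none was called in either direction, and their median log2 fold change was 0.30. It was above 0 for 6 of them, with Gfap the highest at 0.64, while Slc1a2 and Gja1 were at -0.19 and -0.30. Gfap, the intermediate filament of astrocytes, was at 123408, 121993 and 99186 in sham nerves and at 156465, 178302 and 202957 in crushed nerves, with an adjusted p of 0.0859. The ratio of S100b to Gfap was 0.144 ± 0.00565 in sham nerves and 0.0553 ± 0.00381 in crushed nerves (SD, n = 3 each). Its groups could not overlap, because those of S100b and of Gfap were apart in opposite directions. No other astrocyte marker was set against S100b. In bulk RNA, fewer cells of a type and less RNA per cell cannot be told apart, and the part of oligodendrocyte RNA in the fall of S100b was not tested.

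The 3 genes with a profile most like that of S100b over the 6 libraries were Stmn1, Bpgm and Omg. Likeness was the root mean square difference of log2(normalized count + 1) after centering, among genes with a mean of at least 50, and it was 0.04, 0.05 and 0.07 for these genes, against a spread of S100b itself of 0.40. Stmn1 encodes stathmin, a regulator of microtubules, Bpgm an enzyme of 2,3-bisphosphoglycerate metabolism, and Omg the oligodendrocyte myelin glycoprotein. Their log2 fold changes were -0.73, -0.74 and -0.85. Because the genes were chosen for a profile like that of S100b in the same libraries, their direction is a description and no separate result.

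S100a6, also known as calcyclin, was the more abundant of the 2 members called higher. It lies on chromosome 3 from 90612882 to 90624181 (ENSMUSG00000001025.8). Its normalized counts were 2500, 2670 and 2466 in sham nerves and 6042, 5055 and 8839 in crushed nerves. The sham mice were nearly alike, and the ON-CR mice were all above them but spread widely, with mouse 6 the highest. The means were 2546 ± 109 and 6645 ± 1963 (SD, n = 3 each). In limma, its log2 fold change was 1.34 ± 0.18 (SE), with an adjusted p of 0.0055. It remained called whichever mouse was left out, with a log2 fold change of 1.12 to 1.52 and an adjusted p of 0.000757 to 0.0424.

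The genes most like S100a6 over the 6 libraries were Vim, Tnfrsf12a and Osmr, at root mean square differences of 0.10, 0.11 and 0.11 against a spread of S100a6 itself of 0.71. Vim encodes vimentin, an intermediate filament that rises in reactive astrocytes, Tnfrsf12a the receptor for the cytokine TWEAK, and Osmr a subunit of the oncostatin M receptor. Their log2 fold changes were 1.26, 1.17 and 1.48, a direction that the choice by likeness fixed. The ratio of S100a6 to Gfap was 0.0203 to 0.0249 in sham nerves and 0.0284 to 0.0435 in crushed nerves. The ratio of S100a6 to S100b went from 0.155 ± 0.0195 to 0.668 ± 0.148 (SD, n = 3 each). Its groups could not overlap, because S100a6 was higher and S100b lower in every ON-CR mouse than in any sham mouse.

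S100a4, a member linked to cell motility that binds non-muscle myosin, is encoded upstream of S100a6 on the same strand (chromosome 3 from 90603771 to 90606045, ENSMUSG00000001020.8). Its normalized counts were 74.3, 82.3 and 65.7 in sham nerves and 222, 180 and 261 in crushed nerves, from 70 to 251 estimated reads. No ON-CR mouse came near the sham range. The means were 74.1 ± 8.30 and 221 ± 40.2 (SD, n = 3 each). In limma, its log2 fold change was 1.55 ± 0.21 (SE), with an adjusted p of 0.0060. Without ON-CR mouse 6 the adjusted p was 0.0683 at a log2 fold change of 1.43, and with any other mouse left out the call was kept. The annotated gene Gm42674 shares 302 exonic bases with S100a4 on the same strand, so some of these reads may belong to it. Of 7 microglial markers 1 was called, Aif1, as higher (log2 fold change 1.22, adjusted p = 0.0260), and the median of the list was 0.33. Their summed value was 13715 to 18113 in sham nerves and 16580 to 24564.6 in crushed nerves. The microglial genes Tmem119, P2ry12 and Sall1 had log2 fold changes of -0.27, -0.35 and -0.07. The ratio of S100a4 to Aif1 was 0.117 to 0.169 in sham nerves and 0.155 to 0.214 in crushed nerves, and the part of microglia in the rise of S100a4 was not tested. Among fibroblast and meningeal markers, which also include cells known to express S100a4, none of 6 was called higher and 1 (Slc47a1) was called lower.

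**Figure D3:**
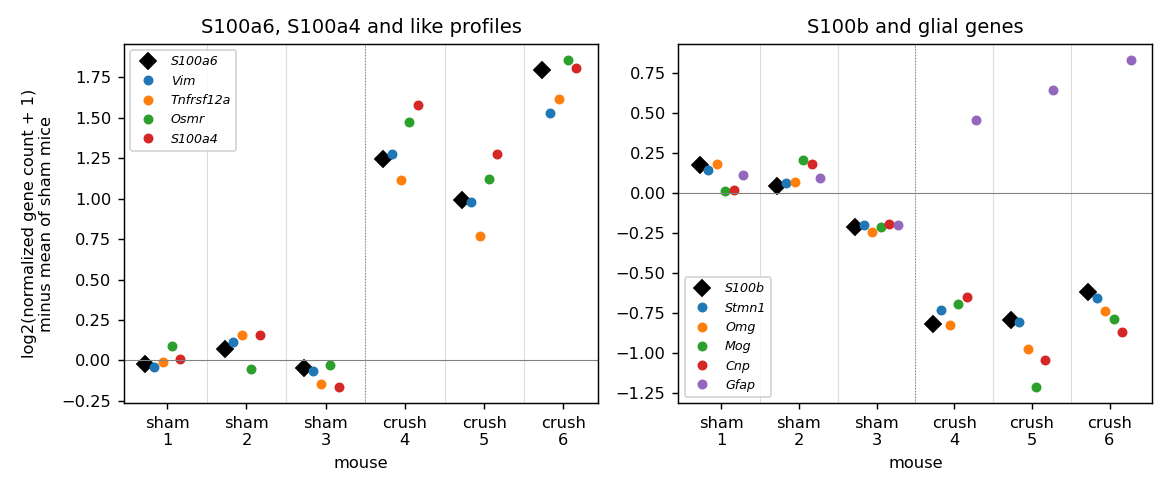
Log2(normalized gene count + 1) in each library relative to the mean of the 3 sham mice, for S100a6 with S100a4, Vim, Tnfrsf12a and Osmr (left) and for S100b with Stmn1, Omg, Mog, Cnp and Gfap (right). On the left all genes are above their sham values in mice 4, 5 and 6, and on the right all but Gfap are below them.

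S100a4 and S100a6, the members called higher, lie near each other on chromosome 3, and so does S100a3. These genes were picked out by their own fold changes, so their nearness is a description. In the cluster that starts with S100a1, the order along the chromosome is S100a1, S100a13, S100a14, S100a16, S100a3, S100a2, S100a4, S100a5, S100a6, S100a7a, S100a8 and S100a9. The start of S100a4 lies 92.7 kb from that of S100a1, and S100a11 and S100a10 lie about 3009 kb and 3044 kb away. S100a3 and S100a2, which were not among the 10 genes, lie between S100a16 and S100a4. S100a3 was at 25.5, 10.6 and 29.1 in sham nerves and at 83.8, 135 and 130 in crushed nerves, from 12 to 129 estimated reads. The log2 fold change was 2.45 ± 0.40 (SE), with an adjusted p of 0.0142. Its groups did not overlap, and the adjusted p was 0.140 without ON-CR mouse 6. S100a2 was at 15.9 to 27.2 in sham nerves and at 40.9 to 70.6 in crushed nerves, and with an adjusted p of 0.0745 it was not called. The locus of S100a3 spans that of S100a2 on the same strand with 0 shared exonic bases. S100a3 also shares 144 exonic bases with Gm42674, the gene that overlaps S100a4. Some reads of both may belong to it, so their rises may not be independent. S100a5 was not analysed here. On the other side of S100a3, the genes S100a1, S100a13, S100a14 and S100a16 had log2 fold changes of -0.16 to 0.27, and none of them passed the test. S100a14 and S100a7a had few reads, at most 11 in any library. S100pbp, named for binding an S100 protein and not a family member, was at 293 to 339 in sham nerves and 297 to 353 in crushed nerves (adjusted p = 0.796).

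**Figure D4:**
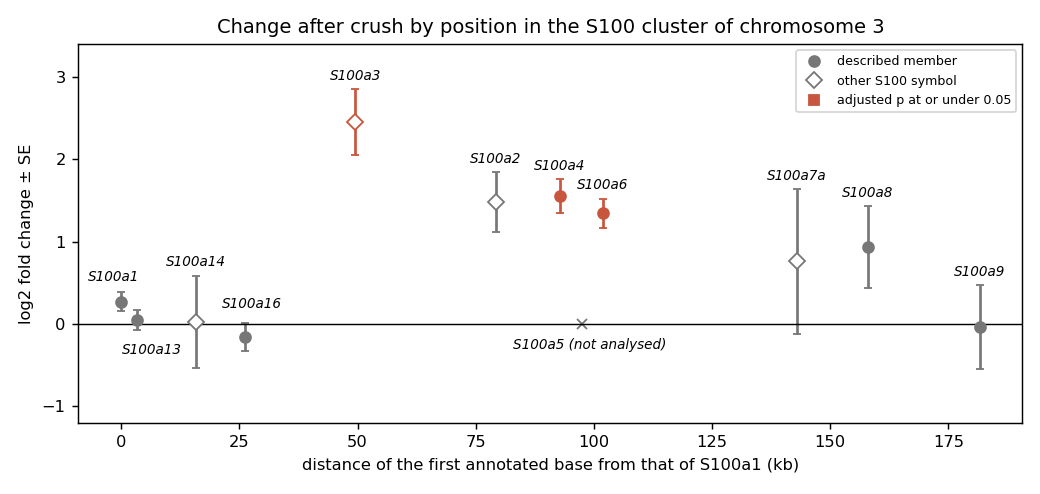
Log2 fold change ± standard error of ON-CR over sham against the distance (kb) of each gene's first annotated base from that of S100a1, for the S100 genes of the chromosome 3 cluster. S100a3, S100a2, S100a4 and S100a6 lie together at log2 fold changes of 1.34 to 2.45, and S100a1, S100a13, S100a14 and S100a16 lie near 0, while the cross marks the position of S100a5 and carries no value.

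S100a10 and S100a11, the annexin-binding members, had higher means after ON-CR but did not pass the test. S100a10 (chromosome 3 from 93555080 to 93564643) had normalized counts of 1124, 846 and 1014 in sham nerves and 1347, 1053 and 1775 in crushed nerves. S100a11 (chromosome 3 from 93520488 to 93526287) had counts of 1464, 1149 and 1320 in sham nerves and 1802, 1337 and 2364 in crushed nerves. In both genes ON-CR mouse 5 fell within the sham range and mouse 6 was the highest of all mice. The log2 fold changes were 0.46 (95% interval 0.04 to 0.88, adjusted p = 0.270) and 0.45 (95% interval 0.03 to 0.88, adjusted p = 0.287). S100a11 was called without ON-CR mouse 5 (log2 fold change 0.66, adjusted p = 0.0465), and without ON-CR mouse 6 its log2 fold change was 0.25 (adjusted p = 0.600). The 2 transcripts kept a nearly fixed ratio, S100a10 over S100a11 being 0.736 to 0.787 over all 6 libraries. A processed pseudogene, S100a11-ps, is annotated on chromosome 12, and reads of S100a11 could have been divided with it.

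Of the annexins that bind them, 1 was called, as lower. Anxa2, which forms a complex with S100a10 at the plasma membrane, was at 5906, 4257 and 5293 in sham nerves and at 4605, 3954 and 5720 in crushed nerves (log2 fold change -0.12, adjusted p = 0.786). Anxa1, the partner of S100a11, fell from 2000, 1713 and 2309 to 1189, 1161 and 1345 (log2 fold change -0.70 ± 0.13 SE, adjusted p = 0.0285). The ratio of S100a10 to Anxa2 was 0.194 ± 0.00450 in sham nerves and 0.290 ± 0.0222 in crushed nerves, and that of S100a11 to Anxa1 was 0.658 ± 0.0809 and 1.48 ± 0.305 (SD, n = 3 each). Neither ratio overlapped between the groups, and both were picked once the values were known. Of 14 genes for described partners of S100 proteins, 2 were called lower and none higher, with a median log2 fold change of -0.09. The other call was Fgf1, a growth factor exported with S100a13, at 4476, 4291 and 3556 in sham nerves and 2536, 2361 and 2005 in crushed nerves (log2 fold change -0.84, adjusted p = 0.0118). The extracellular receptors were not called in any of 5 cases. Ager, which encodes the receptor RAGE for S100b and calprotectin, ranged from 33.6 to 240 in sham nerves and from 65.4 to 194 in crushed nerves. Tlr4, a further receptor for calprotectin, was at 105 to 165 and at 140 to 200 (log2 fold change 0.46, adjusted p = 0.372).

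S100a1, S100a13 and S100a16 were abundant in every library and did not pass the test. S100a1 (chromosome 3 from 90511034 to 90514392), best known as a calcium sensor of muscle and also made by glia and neurons, was at 8092, 8391 and 7131 in sham nerves and at 9683, 8536 and 10325 in crushed nerves. All ON-CR values were above all sham values, though by a small margin, and the log2 fold change was 0.27 (95% interval 0.01 to 0.53, adjusted p = 0.301). S100a13, whose start lies on the opposite strand beside that of S100a1 so that their 250-base windows share 104 bases, was at 1840, 2020 and 1761 in sham nerves and at 1922, 1719 and 2169 in crushed nerves. Its log2 fold change was 0.04 (95% interval -0.23 to 0.31, adjusted p = 0.904), with full overlap of the groups. The ratio of S100a1 to S100a13 was 4.05 to 4.40 in sham nerves and 4.76 to 5.04 in crushed nerves. S100a16 was at 12673, 12090 and 9434 in sham nerves and at 11507, 7818 and 11521 in crushed nerves. ON-CR mouse 5 was below every sham mouse and the other two lay within their range, for a log2 fold change of -0.16 (95% interval -0.55 to 0.23, adjusted p = 0.717).

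S100a8 and S100a9, the calprotectin pair, were at the low end of the family and varied most between mice. S100a8 (chromosome 3 from 90668978 to 90670035) had normalized counts of 106, 26.6 and 27.2 in sham nerves and 65.8, 74.4 and 114 in crushed nerves. Sham mouse 1 lay within the ON-CR range, and the other sham mice were below all of them. The log2 fold change was 0.93 (95% interval -0.17 to 2.04, adjusted p = 0.402), and it ranged from 0.60 without sham mouse 2 (adjusted p = 0.747) to 1.58 without sham mouse 1 (adjusted p = 0.0985). S100a9 (chromosome 3 from 90692632 to 90695721) was at 49.9, 12.4 and 25.4 in sham nerves and at 17.9, 23.1 and 35.3 in crushed nerves, from 14 to 47 estimated reads. Sham mouse 1 was again the highest sham library, and the groups overlapped, with a log2 fold change of -0.04 (95% interval -1.18 to 1.10, adjusted p = 0.981). The ratio of S100a8 to S100a9 was 2.13, 2.14 and 1.07 in sham nerves and 3.67, 3.23 and 3.24 in crushed nerves, a separation noticed after the values had been seen and resting on few reads.

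The gene most like S100a8 over the 6 libraries was Ngp, which encodes neutrophilic granule protein, at a root mean square difference of 0.18 against a spread of S100a8 itself of 0.83. Ngp was at 131, 21.2 and 27.2 in sham nerves and at 59.8, 68.1 and 112 in crushed nerves, and it too was chosen for its likeness in these libraries. The next were H2-M3, a non-classical MHC class I gene, and Fcrls, a receptor gene of microglia, at 0.27 and 0.29. Of 9 neutrophil markers in the table, none was called, and their summed value was 183 to 441 in sham nerves and 309 to 586 in crushed nerves. Csf3r, the receptor for granulocyte colony-stimulating factor, which microglia also express, was the largest of them, at 114 to 170 in sham nerves and 179 to 462 in crushed nerves. Mpo and Cxcr2, defining markers of neutrophils, were at most 10.6 and 4.24 in any library. Monocyte markers were not called in any of 6 cases, and they summed to 268 to 425 in sham nerves and 229 to 1033 in crushed nerves. The part of blood cells in the values of S100a8 and S100a9 was not tested. Keratinocytes, which can also make both proteins, gave markers with a summed value of 231 to 310 and 270 to 366, with none of 7 called.

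**Figure D5:**
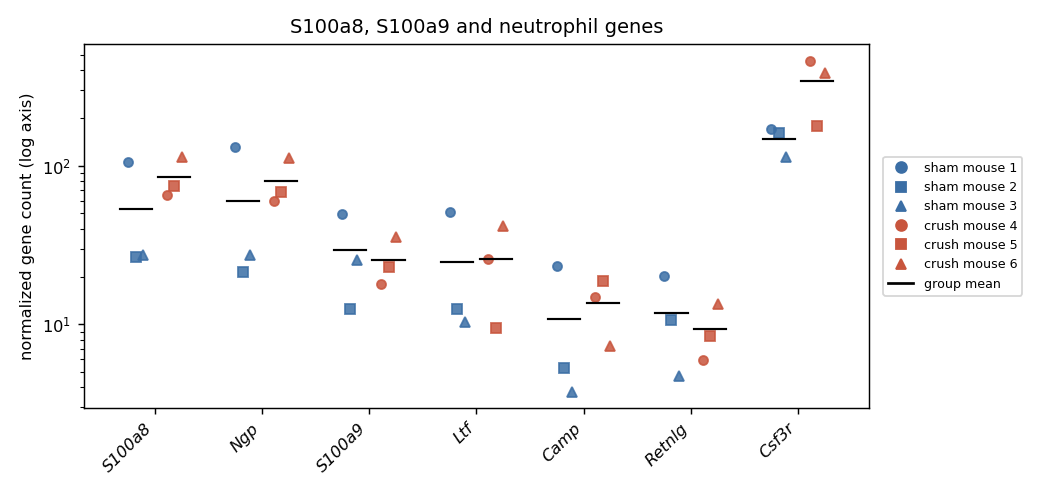
Normalized gene count (log axis) of S100a8, S100a9 and 5 neutrophil genes in each library, with a bar for the mean of each group. Sham mouse 1 is the highest sham library for every gene shown, and the S100a8 and Ngp points of each mouse lie close to each other.

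Levels were set per kilobase of annotated exonic length for a rough comparison between genes. That length merges the exons of all annotated transcripts of a gene, and which of them were used in these nerves was not tested. The order and the shares below depend on it. In sham nerves the order of the family was S100a1, S100b, S100a16, S100a13, S100a11, S100a6, S100a10, S100a4, S100a8 and S100a9. S100a1 and S100b led at 11342 ± 948 and 11188 ± 1488 normalized counts per kilobase (SD, n = 3 each), with overlapping values. The levels of S100a13 and S100a11 also overlapped, as did those of S100a4 with S100a8 and of S100a8 with S100a9, and the other neighbors in the order were apart. After ON-CR S100a1 was alone at the top with 13710 ± 1306, and S100b, at 6641 ± 505, overlapped S100a16. S100a6 moved from the sixth place to the fourth, with a level of 4861 ± 1436 that overlapped those of S100b, S100a16 and S100a11. Expressed as a share of the summed level of the 10 genes, S100b made up 29.6% ± 1.17 in sham nerves and 16.9% ± 1.86 in crushed nerves, and S100a6 made up 4.96% ± 0.435 and 12.1% ± 1.81 (SD, n = 3 each). The summed level itself was 33580 to 40587 in sham nerves and 33594 to 45491 in crushed nerves. Among the ON-CR mice, mouse 6 had the highest value for all 10 genes.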

How the data were processed

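RNA of optic nerves from 3 sham and 3 ON-CR mice was sequenced in bulk, and the samples were grouped by their labels. Per the study, DRAGEN did the alignment, reads were counted on an Ensembl annotation of mm10, and the authors scaled the libraries by their median in Partek Flow 10.0. The deposited signal is thus an estimated count per gene divided by a factor per library, and it is not a whole number. Because the deposited values are not counts, log2(value + 1) was tested with limma 3.58.1 (R 4.3.3). The variance prior followed the mean, p-values were adjusted by Benjamini-Hochberg across 25755 genes, and every adjusted p is from limma. The test was checked on simulated data.

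Estimated reads are values divided by the most frequent lowest value of each library, the value of 1 read (0.885 to 1.06). Between 67.8% and 70.0% of values under 1000 reads were then whole to within 0.01, so the reads served to describe depth only. The ON-CR libraries were the shallower ones. Counting error is small for most genes described, and larger for S100a4, S100a8, S100a9, S100a2, S100a3, S100a14 and S100a7a. Gene positions and exonic lengths are from GENCODE M21 (GRCm38, the assembly mm10), promoters from RefSeq on GRCm38.p6.

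The 10 genes and the gene lists were chosen with earlier results of these data known. Named genes were the 10 genes, other symbols starting with S100, genes of the receptor and partner lists that were called, together with Ager, Tlr4, Anxa1 and Anxa2, cell type markers beside a result, and the 3 genes most like S100a8, S100a6 and S100b. Lists covered astrocytes, mature oligodendrocytes, oligodendrocyte precursors, microglia, neutrophils, monocytes, Schwann cells, fibroblasts, keratinocytes, glandular epithelium, muscle, erythroid cells and sex-linked genes. Alternatives were other pseudocounts, a filter on low values, other scalings, other variance fits and leaving out each mouse.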

Additional observations from a re-analysis of the deposited data

How the results depend on the processing

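Of 140 values for the 10 S100 genes under the alternatives, 124 kept their direction and their side of the threshold, 8 fell short of it and 1 passed it. The remaining 7 changed sign, all in genes that were not called. S100a9 had a log2 fold change of 0.083 with libraries scaled to equal totals, 0.088 with sample quality weights, 0.44 without sham mouse 1, 0.17 without ON-CR mouse 4 and 0.0021 when ON-CR mouse 5 was dropped, its range over the 6 mice left out being -0.52 to 0.44. S100a13 ranged from -0.041 (ON-CR mouse 6 left out) to 0.13, and S100a16 from -0.29 to 0.026 (ON-CR mouse 5 left out). Outside the 10 genes, S100a14 was at -0.18, -0.19 and -0.15 without sham mouse 3, ON-CR mouse 4 and ON-CR mouse 6 (highest 0.41), and S100a7a at -0.14 without sham mouse 2 (highest 1.55). Neither gene had a value under the filter on low values.

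With no trend of the variance on the mean, limma called 0 of the 10 genes and 7 of all genes, although 3 of the 10 had an unadjusted p at or under 0.05. The cause was not tested. Leaving out each mouse gave 1 to 4 called members of the family and 67 to 854 called genes in all. The lowest counts came without ON-CR mouse 6, when S100a6 alone was called, and the highest without ON-CR mouse 5, when S100a11 was added. Without sham mouse 1, 2 or 3 there were 192, 123 and 258 called genes in all.

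The labels give 6 separate mice, each in a single group, so the design holds no pairs and no paired analysis was made. Low depth limits S100a8, S100a9, S100a14 and S100a7a. It also limits S100a2 and S100a3, which had 15 to 29 and 12 to 31 estimated reads in sham nerves. S100a4 had 70 to 93 there.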

Other observations

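Of the other cell type lists, 0 of 4 markers of oligodendrocyte precursors were called, with a summed value of 7686 to 8227 in sham nerves and 7752 to 8698 in crushed nerves. Among 6 genes listed for Schwann cells, 1 was called, as lower. This was Mal, a membrane protein that oligodendrocytes also make in myelin (log2 fold change -0.90, adjusted p = 0.0053). Erythroid genes summed to 269397 to 509290 in sham nerves and 136974 to 378023 in crushed nerves, with 0 of 5 called at an adjusted p at or under 0.05 by limma.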
